A study of Mus musculus with 4 samples.

Results

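The genes described here act on neutral lipids, the triglycerides, diacylglycerols and monoacylglycerols that cells store or take up: Mgll, Pnpla2, Lipe, Lpl, Abhd5, Abhd6, Faah and Plin2. All 8 genes were present on the array. Every probe set whose platform annotation gives only that symbol was taken, which gave 15 probe sets of the 20380 that carry a single symbol. The group was drawn up around Mgll, whose higher signal in resistant cells was already known from these arrays, so the difference of Mgll between the populations is given as a description. The other 7 genes are its neighbours in the pathway.

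NF639 is an established mouse cell line that came from a mammary tumour driven by the ErbB2 oncogene. Gene expression was measured on Affymetrix Mouse 430A 2.0 arrays in the original population (2 arrays) and in a pool of NF639 cells that withstand EGCG, epigallocatechin gallate, a polyphenol abundant in green tea (2 arrays). The resistant cells are a pool and not a clone, the RNA came from independent experiments, and the labels do not say whether EGCG was present at harvest or that the replicate number marks an experiment. The comparison asks how transcript levels differ between resistant and original cells.

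Triglycerides are broken down in steps. Pnpla2 (adipose triglyceride lipase), helped by its coactivator Abhd5, removes the first fatty acid, Lipe (hormone-sensitive lipase) acts mainly on the diacylglycerol that results, and Mgll (monoacylglycerol lipase) splits the monoacylglycerol into glycerol and a free fatty acid. Mgll also degrades the endocannabinoid 2-arachidonoylglycerol, as does Abhd6, while Faah hydrolyses the endocannabinoid anandamide. Lpl is secreted and acts on triglycerides of circulating lipoproteins, and Plin2 coats the lipid droplet. Mgll has been studied in aggressive cancer cells as a source of free fatty acids.

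The values are MAS5 signals, a background-adjusted linear intensity per probe set, with a median per array of 114 to 135. A probe set was tested where its mean log2 signal over the 4 arrays reached the 40th percentile, equivalent to a signal of 49.1. Differences are of log2(signal + 3), resistant minus original, with the standard error (SE) from limma's fit across all 13576 tested probe sets. This scale understates the change of dim genes. In that fit 0.169% of probe sets (23, of which 8, or 0.0589%, were higher and 15, or 0.11%, lower in resistant cells) passed at a Benjamini-Hochberg adjusted p under 0.05, and 998, or 7.35%, had an unadjusted p under 0.05. Leaving out a single array leaves 1 array in a group, so only the size of a difference is given from such fits. The 7 probe sets of the spiked controls BioB, BioC and BioDn were 1.39 to 2.29 times brighter on the array numbered 2 than on the array numbered 1 of the same population. The array of original 2 also stood apart in 18S ribosomal RNA, with a signal of 4005.3 at the 5′ probe set against 346.7 to 624.3 on the other arrays. For these reasons differences between arrays of the same number, and values without original 2, are given where a result rests on them. The p-values measure only the spread between these arrays.

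Of the markers of mammary epithelium only Erbb2 was well measured in these cells. Erbb2 had signals of 319.7 and 299.4 in original and 280.7 and 326.2 in resistant cells. The epithelial markers Krt8, Krt18, Krt19, Epcam and Cdh1 all fell short of the filter, with signals from 1.4 to 62.9 on the brightest probe set of each. Adipocytes are the cells in which these lipases are best known, and of the 6 adipocyte markers on the array (Adipoq, Cidec, Fabp4, Lep, Retn and Pparg) 0 reached the filter. Their signals ran from 0.9 to 44, and their sum over all 9 probe sets was 71.8 and 108.1 in original and 100.8 and 114.4 in resistant cells. Endothelial markers were also dim, with 0 of 4 reaching the filter and signals from 0.4 to 32.6. Of the 6 macrophage markers 3 reached it, with a sum over all 8 of their probe sets of 479.9 and 334.1 in original and 463 and 357.9 in resistant cells. All 5 fibroblast markers reached it, with a sum over 9 probe sets of 9425.9 and 7930.9 in original and 8255.4 and 6933 in resistant cells. The sums of the macrophage, adipocyte and fibroblast lists overlapped between the populations. Among the fibroblast genes Col1a1 lay higher on both resistant arrays, by 0.99 ± 0.275 (SE) on the log2 scale. Col1a2 and Dcn lay lower on both, at -0.62 ± 0.183 (SE) and -2.15 ± 0.699 (SE). Pdgfra and Pdgfrb overlapped, at 0.72 ± 0.537 (SE) and 0.44 ± 0.283 (SE). None of these 5 passed (limma, adjusted p from 0.329 to 0.866), and 37.2% of all genes tested did not overlap. The part of such cells in the results for the lipases was not tested.

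Mgll had 4 probe sets, and 3 of them were brighter on both resistant arrays. The brightest, 1426785_s_at, gave signals of 61.8 and 38.6 in original cells and 281.8 and 252.5 in resistant cells. Both resistant arrays thus lay far above both original arrays. The resistant pair lay closer together than the original pair on the log2 scale, though not in linear signal. The means were 50.2 ± 16.4 (SD, n = 2) and 267 ± 20.7 (SD, n = 2), a ratio of 5.32, and the log2 difference was 2.38 ± 0.342 (SE). In these bulk samples a larger share of cells with the transcript and more transcript per cell cannot be told apart. This probe set was 1 of the 8 called higher among all probe sets (0.0589% of those tested), which is the reading that chose the gene, so nothing further is drawn from it.

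The next probe set, 1453836_a_at, gave 55.6 and 16.9 in original and 250 and 151.8 in resistant cells. Its log2 difference was 2.53 ± 0.516 (SE), as large as that of the brightest, with a wider spread within each population. The probe set 1450391_a_at gave 68.1 and 32.5 in original and 194.5 and 107.8 in resistant cells, a smaller log2 difference of 1.56 ± 0.450 (SE). Neither of these was called in the fit across the table. The difference of the former was 3.31 when original 1 was dropped and 1.76 when original 2 was. It was 2.18 without resistant 1 and 2.89 without resistant 2. The latter stood at 2.06, 1.06, 1.14 and 1.97 in the same fits. The probe set 1431331_at was near the bottom of the scale, at 2 and 8.8 in original and 1.2 and 35.5 in resistant cells, and its arrays overlapped. The design suffix s_at marks a probe set whose probes can also match transcripts of other genes and a_at one that covers several transcripts of the same gene, so the 3 bright probe sets are of kinds that can read more than a single transcript.

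The original-cell level of Mgll lay at the edge of what the filter admits. The mean log2 signal of original cells was equivalent to a signal of 48.9 for 1426785_s_at, 47.3 for 1450391_a_at and 31.2 for 1453836_a_at, each below the filter's 49.1. These probe sets were therefore tested only because their resistant signals were high, and a count over the members tested is no support for a difference. The low original signals also make the size depend on the pseudocount. With a pseudocount of 64 in place of 3 the log2 differences were 1.54, 0.90 and 1.40 in the same order.

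At these 3 probe sets Mgll was dimmer on the array numbered 2 of each population. For 1426785_s_at, original 2 minus original 1 was -0.64 and resistant 2 minus resistant 1 was -0.15 on the log2 scale. For 1450391_a_at these were -1.0 and -0.83, and for 1453836_a_at -1.56 and -0.71. The gaps within populations were thus smaller than the difference between populations at each of the 3 probe sets, though for 1450391_a_at and 1453836_a_at not by a wide margin. Between arrays of the same number, resistant minus original was 2.14 and 2.62 for 1426785_s_at, 1.47 and 1.64 for 1450391_a_at, and 2.11 and 2.96 for 1453836_a_at. Without original 2 the log2 difference of 1426785_s_at was 2.06.

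**Figure D1:**
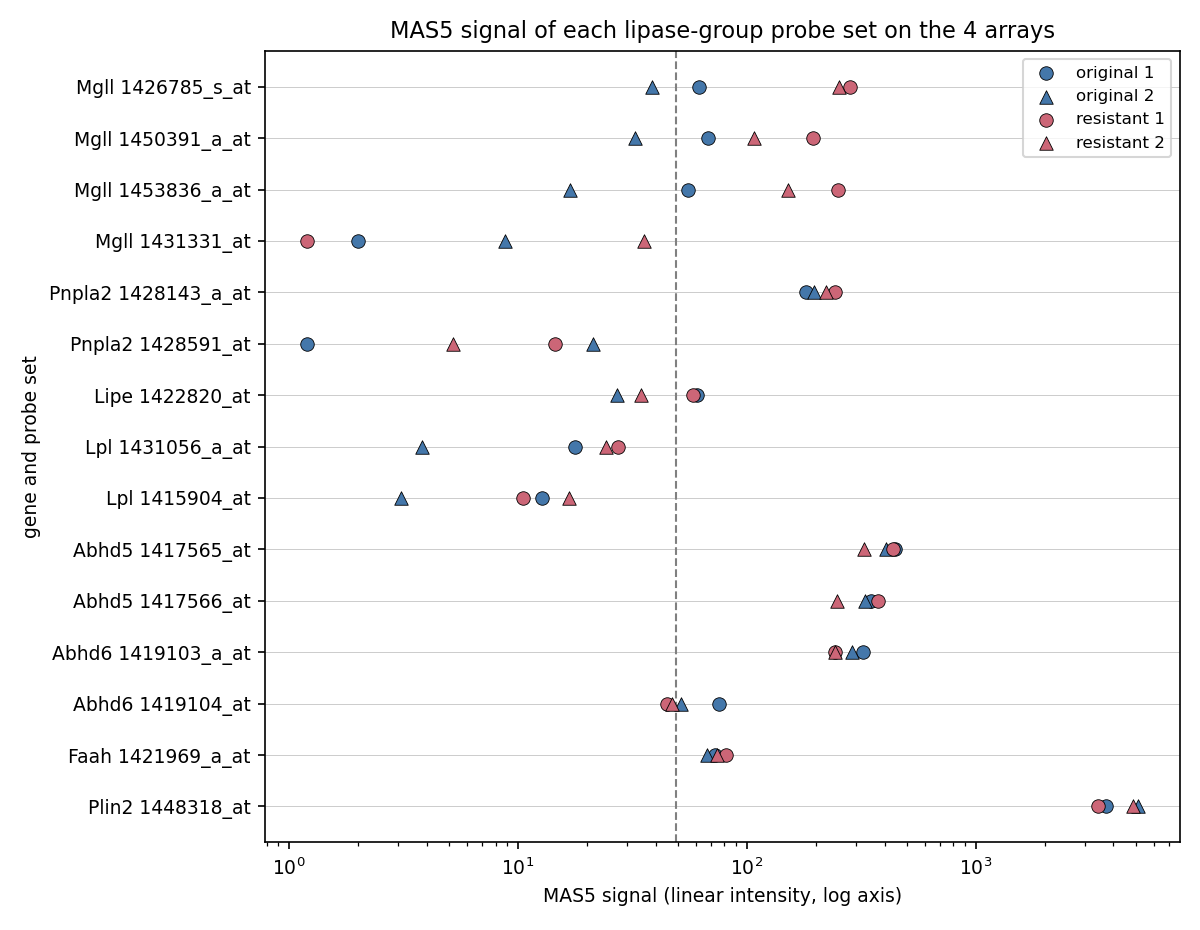
MAS5 signal of the 15 probe sets of the 8 genes on a log axis, 1 point per array; blue is the original population, red the resistant pool, circles are the arrays numbered 1 and triangles those numbered 2, and the dashed line is the filter's signal of 49.1. The 3 brighter Mgll probe sets are the rows in which red and blue stand well apart, while the other genes above the line keep their 4 points closer together and the Lpl points lie left of it.

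Upstream of Mgll, the triglyceride lipase Pnpla2 showed a much smaller difference. Its probe set 1428143_a_at gave 182.2 and 196.1 in original and 242.5 and 221.3 in resistant cells. The resistant arrays were both higher and the groups did not overlap, an ordering that 17.7% of all tested probe sets share. The log2 difference was 0.29 ± 0.257 (SE), with a 95% interval from -0.28 to 0.86, and it did not pass (limma, adjusted p = 0.893). The other Pnpla2 probe set, 1428591_at, lay between 1.2 and 21.4 on all arrays and was not tested.

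Abhd5, the coactivator of Pnpla2, was measured by a pair of probe sets that gave like values. For 1417565_at the signals were 443.1 and 404.2 in original and 435.5 and 325.5 in resistant cells, and for 1417566_at 347.8 and 330 in original and 373.3 and 246.9 in resistant cells. The groups overlapped at both, with resistant 2 the lowest array each time. The log2 differences were -0.17 ± 0.230 (SE) and -0.16 ± 0.259 (SE), and neither passed (limma, adjusted p = 0.957 and 0.973). The 95% intervals ran from -0.68 to 0.34 and from -0.73 to 0.42. The sign rested on resistant 2, since without it the differences were 0.039 and 0.14.

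Lipe, the diacylglycerol lipase, was dim and fell short of the filter. Its only probe set gave 60.5 and 27.2 in original and 58.2 and 34.7 in resistant cells. The signals followed the replicate number, with the array numbered 2 minus the array numbered 1 at -1.07 in original and -0.70 in resistant cells on the log2 scale, and the groups overlapped. Lpl, the secreted lipase, was dimmer still. The probe set 1431056_a_at gave 17.7 and 3.8 in original and 27.3 and 24.2 in resistant cells, and 1415904_at gave 12.8 and 3.1, and 10.5 and 16.7. At the former both resistant arrays were above both original arrays, and at the latter they overlapped. All of these lie below the filter's signal. When every probe set was tested without a filter, the 5 member probe sets that the filter removes (1 each of Mgll, Pnpla2 and Lipe and 2 of Lpl) had adjusted p between 0.841 and 0.995 (limma).

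Abhd6, which like Mgll hydrolyses monoacylglycerols, had lower signals on both resistant arrays at each of its probe sets and did not pass the test. The brighter, 1419103_a_at, gave 321.4 and 289.7 in original and 243.4 on each resistant array. The other, 1419104_at, gave 75.7 and 51.9 in original and 45 and 47.3 in resistant cells. At both the resistant arrays were below the original arrays, as at 18.3% of all tested probe sets. The log2 differences were -0.32 ± 0.237 (SE) and -0.42 ± 0.419 (SE), with 95% intervals from -0.85 to 0.20 and from -1.35 to 0.51 (limma, adjusted p = 0.853 and 0.919). The mean log2 signal of 1419104_at was equivalent to a signal of 62.8 in original and 46.1 in resistant cells, so it reached the filter of 49.1 only through its original signals and adds no support to the direction of the brighter probe set. Its difference also rested on single arrays, at -0.16 without original 1 and -0.68 without original 2. A direct test of Abhd6 against Mgll was not made.

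Faah, the anandamide hydrolase, varied little over the 4 arrays. Its signals were 73 and 66.9 in original and 81.1 and 74 in resistant cells, so that the nearest arrays of the populations, at 73 and 74, all but touched. The log2 difference was 0.14 ± 0.364 (SE), the 95% interval ran from -0.67 to 0.95, and it did not pass (limma, adjusted p = 0.989).

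Plin2, the droplet coat protein, gave signals of 3710.9 and 5130.1 in original and 3414 and 4865.6 in resistant cells. The arrays numbered 2 were higher in both populations, by 0.47 and 0.51 on the log2 scale, and the groups overlapped. The difference between populations was -0.099 ± 0.220 (SE), with a 95% interval from -0.59 to 0.39 (limma, adjusted p = 0.985). Its sign changed when original 2 (0.14) or resistant 1 (0.16) was left out. Between arrays of the same number it was -0.12 and -0.078.

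**Figure D2:**
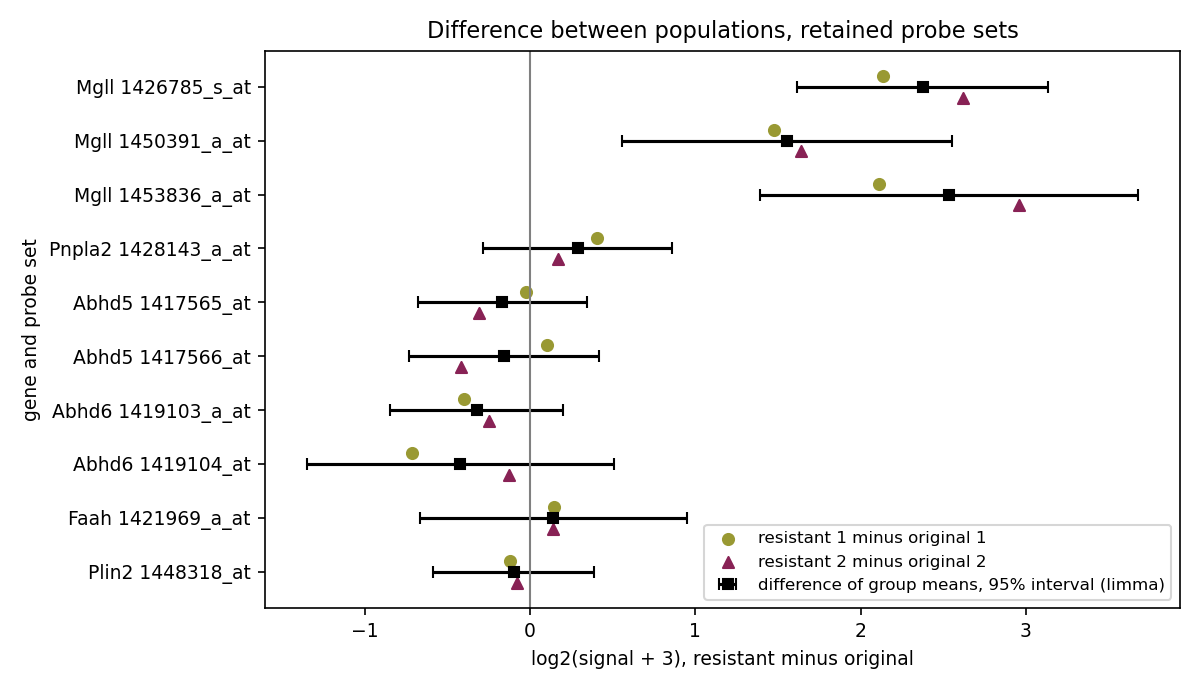
Log2(signal + 3), resistant minus original, for the 10 probe sets of 6 genes that reached the filter; black squares with bars are the limma difference and its 95% interval, circles are resistant 1 minus original 1 and triangles resistant 2 minus original 2. The 3 Mgll probe sets lie between 1.56 and 2.53, and the 7 probe sets of the other genes between -0.42 and 0.29 with intervals that include 0.

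Of the 7 tested probe sets outside Mgll, 0 passed in the limma fit and 0 had an unadjusted p under 0.05. Among them 2 were higher and 2 lower on both resistant arrays and 3 overlapped, and 1 of the 2 lower is 1419104_at of Abhd6, which was admitted through its higher group; over all tested probe sets 36% did not overlap. With 2 arrays a group the intervals of these probe sets reached as far as -1.35 and 0.95, so a missed threshold does not show that a level was equal. An exact permutation test over 2 against 2 arrays cannot give a two-sided p below 0.333 and was not used.

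The lipid genes around these lipases were read from 9 lists. Of their 118 genes 93 were on the array with a probe set of their own and 59 reached the filter. In the limma fit 0 of the 59 passed, against 0.226% of all 7510 genes tested (17 genes), and 3 had an unadjusted p under 0.05. Of the 59, 5 were higher and 14 lower on both resistant arrays, together 32.2% against 37.2% of all genes tested (19.8% higher and 17.4% lower). Among the 14 is Dgat2, which reached the filter only through its original signals. The fitted difference was above 0 for 23, or 39%, against 52.8% of all genes, and the median log2 difference was -0.049 against 0.016.

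The other enzymes and receptors of monoacylglycerol and endocannabinoid metabolism had a median log2 difference of -0.030 over 5 tested genes. Naaa, which hydrolyses N-acylethanolamines in lysosomes, was the only one of these 5 whose arrays did not overlap, with 224.7 and 285.3 in original and 154.9 and 213.1 in resistant cells (-0.47 ± 0.282 SE). Its other probe set lay at -0.40. Daglb, which makes 2-arachidonoylglycerol, was below the filter, with 48.4 and 36.4 in original and 5.9 and 2.4 in resistant cells. Its arrays did not overlap, and in the fit without a filter its log2 difference was -2.70 ± 0.631 (SE) and did not pass (limma, adjusted p = 0.462). It was singled out after its values were seen, as 1 of 34 genes of the 9 lists that fell short of the filter. Of these 34, 13 did not overlap. Among the tested probe sets, which are brighter, 36% did not overlap, and the share over all genes below the filter was not taken. Among the 13 were also Aqp7, lower at -2.15, and Ces1d and Ces1f, higher at 2.52 and 2.04. Other intracellular lipases and esterases, among them the lysosomal lipase Lipa, had a median of -0.049 over 7 tested genes, and all 7 overlapped. In this list Ces1d and Ces1f fell short of the filter and were also picked after their values were seen. At its brightest probe set Ces1d gave 2.9 and 2.4 in original and 39.6 and 21.8 in resistant cells. Ces1f gave 2.2 and 1.4, and 22.9 and 11.9. Neither passed in the fit without a filter (limma, adjusted p = 0.501 and 0.579). Pnpla3 and Aadac, also short of the filter, overlapped.

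Lipid droplet proteins and lipase inhibitors had a median of -0.024 over 4 tested genes. G0s2, the direct inhibitor of Pnpla2, gave 507.8 and 308.1 in original and 906.8 and 478.8 in resistant cells, a log2 difference of 0.73 that did not pass (limma, adjusted p = 0.658). Its groups overlapped, because resistant 2 lay below original 1. G0s2 is named because it is 1 of the 3 genes at an unadjusted p under 0.05, a choice made after its values were seen. The partners and relatives of Lpl had a median of -0.12 over 3 tested genes. Angptl4, a secreted inhibitor of Lpl, gave 192.5 and 114.6 in original and 114.2 and 78.9 in resistant cells (-0.63 ± 0.365 SE), with resistant 1 just under original 2.

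Triglyceride synthesis had a median of -0.18 over 9 tested genes, 1 higher and 4 lower on both resistant arrays, where 19.8% and 17.4% of all genes tested were so ordered. Dgat1 and Dgat2, the enzymes that add the last fatty acid to make a triglyceride, had differences of opposite sign at their tested probe sets. Dgat1 gave 635.2 and 476.7 in original and 750 and 688 in resistant cells (0.38 ± 0.209 SE). The tested probe set of Dgat2 gave 90.9 and 69.1 in original and 53.7 and 43.8 in resistant cells (-0.68 ± 0.397 SE), whereas its dimmer probe set, which was not tested, gave 38.6 and 27, and 59.2 and 62.3 (0.85). The probe sets of Dgat2 thus disagree in sign, and the tested probe set reached the filter only through its original signals (means equivalent to 79.3 in original and 48.5 in resistant cells). Agpat5, an acyltransferase of an earlier step, gave 472.8 and 547.5 in original and 288.6 and 426.8 in resistant cells (-0.53 ± 0.245 SE). None of the genes in this list passed.

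Fatty acid uptake, binding and activation had a median of -0.19 over 6 tested genes. Acsl5, which activates long-chain fatty acids with coenzyme A, gave 3995.6 and 3839.4 in original and 3041.3 and 2706 in resistant cells (-0.45 ± 0.162 SE; limma, adjusted p = 0.548). The fatty acid transporter gene Slc27a1 gave 275.3 and 374.4 in original and 222.8 and 238.4 in resistant cells (-0.47 ± 0.255 SE). Both were lower on each resistant array, and neither passed.

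All 16 genes of mitochondrial fatty acid oxidation on the array reached the filter, with 8 fitted above 0. Etfdh, which passes electrons from fatty acid oxidation to ubiquinone, had the largest difference of these, with 651.7 and 626 in original and 455.1 and 328.7 in resistant cells (-0.72 ± 0.223 SE; limma, adjusted p = 0.408). Hadhb, a subunit of the trifunctional protein of beta-oxidation, lay at 0.28 ± 0.172 (SE), and the carnitine carrier gene Slc25a20 at -0.33 ± 0.261 (SE). The other tested probe sets of Hadhb and Slc25a20 lay nearer to no difference, at 0.10 and -0.11. Of glycerol handling only Gpd2 was tested, at 0.097. The hormonal and transcriptional control list had a median of -0.030 over 8 tested genes. Prkacb, a catalytic subunit of protein kinase A, lay at -0.30 ± 0.214 (SE), and the regulatory subunit gene Prkar1a at -0.068 ± 0.158 (SE). Their other tested probe sets lay at -0.49 and -0.091. The nuclear receptor gene Rxra lay at 0.37 ± 0.278 (SE), where its other probe set lay at -0.29.

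**Figure D3:**
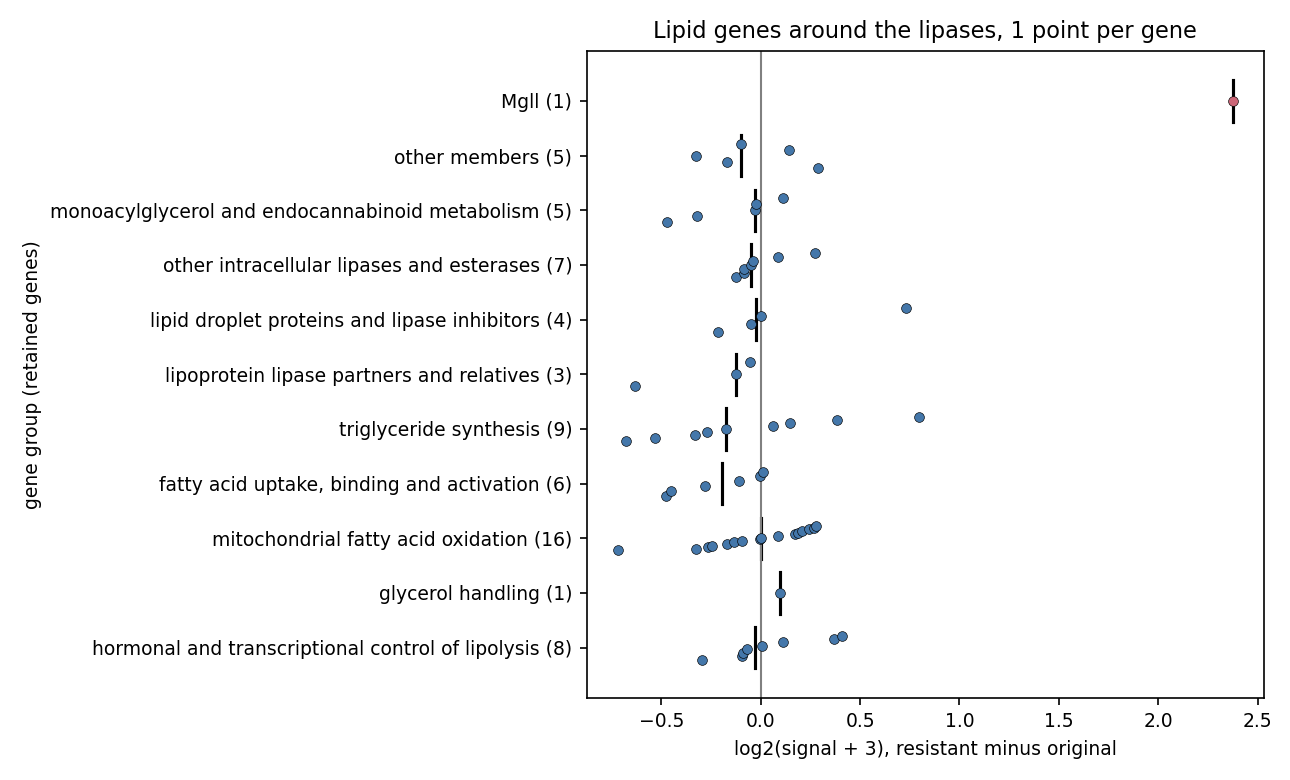
Log2(signal + 3), resistant minus original, with 1 point for each tested gene (its brightest tested probe set) and a black bar at each group's median; the number of genes is in parentheses. Mgll lies at 2.38, and the genes of the other groups lie between -0.72 and 0.80 around medians from -0.19 to 0.097.

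The genes whose profile over the 4 arrays lay nearest to that of Mgll were found by the distance between log2 values, each centred on its own mean, over the 7509 other tested genes. They were Renbp (renin-binding protein; distance 0.713), Col3a1 (a fibrillar collagen chain; 0.819), Tnfrsf11b (osteoprotegerin, a decoy receptor; 0.822), F8a (0.828) and Gng11 (a G-protein gamma subunit; 0.847), where the median distance was 2.42. Renbp gave 54.5 and 50.2 in original and 200 and 172.5 in resistant cells. Col3a1 gave 325.9 and 257.7, and 1714.8 and 782.6, with a wider gap between the resistant arrays than Mgll. These genes were picked for likeness on the same 4 arrays, so their differences are a description. Among the lipase genes the nearest was Pnpla2 at 2.15, in place 1158, and the farthest Abhd6 at 2.72.

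**Figure D4:**
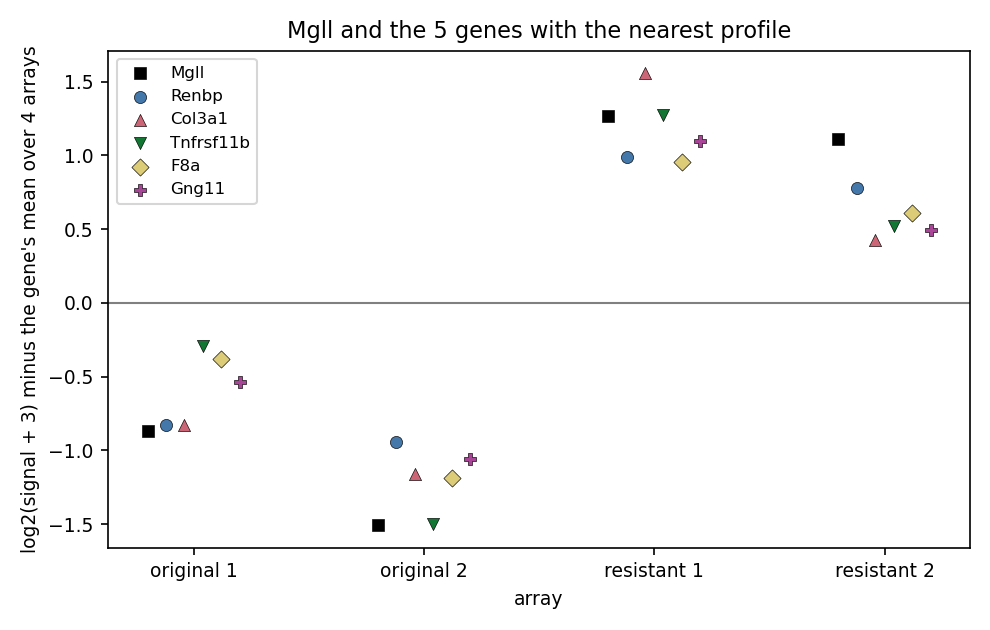
Log2(signal + 3) minus the gene's mean over the 4 arrays, for Mgll (1426785_s_at) and the 5 genes nearest to it, 1 point per gene and array. All 6 genes lie below 0 on both original arrays and above 0 on both resistant arrays, and each is lower on the array numbered 2 of its population.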

How the data were processed

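The deposited table holds MAS5 signal intensities, 1 per probe set and array, that the authors had already scaled: the trimmed mean of each array lay between 496.8 and 497.8. MAS5 is named in the submitters' processing notes; its version and detection calls are not given in the sources used here. The 64 control probe sets were left out, arrays were brought to the same 2% trimmed mean and log2(signal + 3) was taken, where 3 is the rounded 10th percentile of signals. The filter is described in the report. limma 3.58.1 in R 4.3.3 (lmFit, eBayes with a mean-variance trend) fitted resistant minus original over all 13576 retained probe sets, with two-sided p-values adjusted by Benjamini-Hochberg. The procedure was also run on simulated data with the same noise for every probe set and no effect of the replicate number. That setting differs from these arrays, so the run is no support for the calls. A gene is led by its brightest retained probe set. Names come from the platform annotation, and all 8 genes matched the GRCm38.p6 gene table. Members and lists were chosen with earlier results of these data known. All 8 members are named; in each list, genes that passed and up to 3 non-overlapping genes with the largest difference; and the 5 genes nearest to Mgll. Alternatives covered the pseudocount, filter, normalization, variance trend, replicate block and leaving out each array.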

Additional observations from a re-analysis of the deposited data

How the results depend on the processing

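The higher signal of Mgll kept its direction at its 3 tested probe sets under every alternative that measured them. At each, both resistant arrays lay above both original arrays, so leaving out 1 array could not reverse the direction. Mgll was also chosen for this difference, so the kept direction is no support for it. For 1426785_s_at the call ended without a filter (log2 difference 2.38, adjusted p = 0.163), with quantile normalization (2.40, 0.0516), without the variance trend (2.38, 0.120) and, as an alternative chosen after seeing the data, with the 3 probe sets averaged (2.16, 0.0918). Leaving out 1 array gave log2 differences of 2.06 to 2.69 at this probe set. A filter at the 60th percentile, a signal of 240.4, removed Mgll. The cause of these changes was not tested. The number of probe sets called was 23, against 5 without a filter, 10 with the filter at the 60th percentile, 8 with quantile normalization, 0 without the variance trend in limma (922 at an unadjusted p under 0.05), 31 with the filter on the mean linear signal (chosen after seeing the data) and 68 to 111 with 1 array left out. Abhd5 ran from -0.38 to 0.039 (1417565_at) and from -0.45 to 0.14 (1417566_at), Abhd6 from -0.68 to -0.16 (1419104_at) and Plin2 from -0.36 to 0.16, with 1 array left out. With the replicate number as a block, a fit with 1 residual degree of freedom, 710 probe sets passed, among them all 23 and all 3 tested Mgll probe sets, and of the 59 pathway genes 3 passed: G0s2 (0.73), Acsl5 (-0.45) and Etfdh (-0.72). The deviations of same-numbered arrays from their group means correlated at 0.352. Their spiked controls also lay close, with resistant over original at 0.94 to 1.01 for number 1 and 0.99 to 1.14 for number 2. The labels give only the number and not what it stands for. With 2 arrays a group, their number limits the precision.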
